A study of Homo sapiens with 4 samples.

Results

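Mitochondrial fatty acid oxidation enzymes were described across 4 RNA-seq libraries through 10 genes chosen by name: CPT1A, CPT2, ACADM, ACADS, ACADVL, HADH, HADHA, HADHB, ACAT1 and ETFA. They are 10 of the 25411 genes with a row in the tables, and the rule that lists them uses no measured value. The cells were BEAS-2B, a human cell line established from bronchial epithelium. The control group held 2 libraries of cells grown for 72 h, and the cadmium group held 2 libraries of cells given 5 µM cadmium chloride, a toxic heavy metal salt, for 72 h. The labels put the controls under one experiment number and the cadmium libraries under another, so experiment and treatment cannot be told apart. No label says whether the libraries of a group came from separate cultures, so p-values measure no more than how far these libraries differ, and that spread may be technical.

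Fatty acid oxidation takes place in the mitochondrial matrix. Long-chain acyl groups enter as carnitine esters through the outer membrane enzyme CPT1, a carrier and the inner membrane enzyme CPT2, and are then shortened in repeated rounds of dehydrogenation, hydration, a further dehydrogenation and thiolysis, each round releasing acetyl-CoA and feeding electrons to the respiratory chain. The entry step is held back by malonyl-CoA, an intermediate of fatty acid synthesis, and many genes of the pathway are known targets of the PPAR nuclear receptors and the PGC-1 coactivators.

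None of the 10 enzymes passed the test for a difference with cadmium. The 10 log2 fold changes lay between -0.26 and 0.24, with 5 above and 5 below 0, a median of -0.01 and a median size of 0.14. Over all 13663 genes tested the median was 0.00 and the median size 0.23. Of those genes 16.5% passed edgeR's quasi-likelihood test at a Benjamini-Hochberg adjusted p under 0.05, 8.85% with higher and 7.66% with lower counts in cadmium, against 0 of the 10 enzymes in either direction. This was 1209 genes higher and 1046 lower, and 1445 and 682 when libraries were scaled by their size alone. At an unadjusted p under 0.05 stood 2 of the 10, CPT1A and ACAT1, against 34% of all genes tested. Of the genes adjusted for in the authors' deposited table, 15.5% had an adjusted p under 0.05, and 0 of the 10 did, the lowest being 0.166 for ACAT1.

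Reads on genes numbered 8609243 to 29937242 per library, with control replicate 2 the shallowest. The least covered enzyme was ACADM with 318 reads in that library, so all 10 passed the filter on low counts. The label of cadmium was checked on MT2A, a metallothionein gene that metals induce, which rose by 3.40 on the log2 scale (edgeR adjusted p = 0.000567). Simple epithelial keratins KRT8 and KRT18 were abundant, at 250.4 to 301 and 122 to 173 RPKM (reads scaled to gene length and library size). Of the other bronchial epithelial markers, TP63 had 0 reads, KRT5 had 1 read in 1 library, KRT19 had 0 to 7 and CDH1 had 1 to 28 reads. The basal keratin KRT17 had 11.7 and 21.3 RPKM in control and 67.3 and 41.7 in cadmium and did not pass (log2 fold change 1.75, edgeR adjusted p = 0.0840). EPCAM, with 20 to 182 reads, rose by 1.36 on the log2 scale (edgeR adjusted p = 0.0131), and KRT7 fell by 1.02 (edgeR adjusted p = 0.00234), from 268 and 285 RPKM in control to 129 and 149.7 in cadmium. Of 9 such markers 6 could be tested, with 1 higher and 1 lower, and their summed level was 653 to 768 RPKM in control and 630.0 to 656 in cadmium. Of 8 fibroblast markers 4 could be tested, with 0 passing, at a sum of 743 to 868 RPKM in control and 690.5 to 742 in cadmium, almost all of it the collagen gene COL1A1 and THY1, while COL3A1 had 0 reads. Of 8 leukocyte markers 3 could be tested and 2 rose, with a sum of 30.9 to 31.6 RPKM in control and 43.9 to 47.7 in cadmium, although PTPRC, the common leukocyte antigen, had 0 to 2 reads. The hepatocyte and adipocyte markers, cell types with a high rate of fatty acid oxidation or storage, had 11 reads or fewer per gene and library. Nuclear-retained RNAs, whose share can vary with RNA quality, had a summed level of 139 to 178 RPKM in control and 248 to 252 in cadmium, and 2 of the 3 tested rose. The part of these differences in the enzymes' values was not tested. In such bulk RNA, fewer cells of a type and less RNA per cell cannot be told apart.

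The 250 bases before each gene start were read from the RefSeq promoter table of build GRCh38.p14, which held all 10 enzymes. A pair of these windows is printed because it covers the genes with the smallest log2 fold changes, HADHA and HADHB, in a single stretch, and the enzyme with the smallest p, ACAT1. Capitals mark matches on either strand to the GC box GGGCGG, the core bound by the Sp1 family, and to CCAAT, the box bound by NF-Y. HADHA and HADHB encode the subunits of one enzyme and lie head to head on chromosome 2, with 306 bases between their first bases, so the window upstream of HADHB (chr2:26244689-26244938, plus strand) shares 194 bases with that of HADHA. The ACAT1 window is chr11:108121317-108121566, plus strand.
HADHB: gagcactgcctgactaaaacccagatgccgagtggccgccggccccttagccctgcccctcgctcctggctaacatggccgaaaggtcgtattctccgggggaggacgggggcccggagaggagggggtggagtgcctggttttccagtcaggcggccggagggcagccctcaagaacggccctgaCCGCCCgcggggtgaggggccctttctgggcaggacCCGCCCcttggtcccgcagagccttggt
ACAT1: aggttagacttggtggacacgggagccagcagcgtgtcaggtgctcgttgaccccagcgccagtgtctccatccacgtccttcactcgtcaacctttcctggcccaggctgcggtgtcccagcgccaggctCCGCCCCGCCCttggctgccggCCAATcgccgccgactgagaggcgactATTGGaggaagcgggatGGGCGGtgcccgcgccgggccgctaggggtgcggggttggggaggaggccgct

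The HADHB window held 2 matches to the GC box and the ACAT1 window 3, of which a pair overlap by a single base. Both windows had a GC content of 69.2%. A GC box was found in 9 of the 10 windows, all but that of CPT1A. For any of the 10 genes the RefSeq start may differ from that of the deposited gene model. In all 35116 windows of the table the share with a GC box was 42.6%. Those windows were neither limited to genes with reads here nor matched for GC content. CCAAT was found for ACAT1, ETFA and HADH, against 32% of all windows. The nuclear receptor hexamer AGGTCA, the core of sites that PPARs bind, was in 0 of the 10 windows and in 12.1% of all. The longer site AAGGTCA bound by estrogen-related receptors, which contains the former, was likewise in 0 of 10 and in 3.44% of all. The direct repeat AGGTCANAGGTCA was in 0 of 10 and in 0.0171% of all. The core of the metal response element, searched as TGCACNC or TGCGCNC, was in the windows of ACADS and ACADVL, 2 of 10, and in 24.8% of all, with 7 matches in that of MT2A. These are matches of letters in 250 bases and say nothing of binding.

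The 10 enzymes differed widely in level per length. ACADVL, the very long-chain acyl-CoA dehydrogenase of the inner membrane, stood first in every library with 221 and 292 RPKM in control and 285 and 267 RPKM in cadmium. ETFA, HADHA, HADHB and ACAT1 followed in that order in all 4 libraries, from 57.8 RPKM for ETFA to 25.1 RPKM for ACAT1. ETFA lay above HADHA in control, at 57.8 and 52.3 against 46.4 and 46.7 RPKM, but in cadmium, at 49.5 and 47.3 against 49.4 and 46.7 RPKM, these neighbours did not differ beyond their spread. HADH, ACADS, ACADM, CPT2 and CPT1A lay between 10.5 and 18.3 RPKM and changed places from library to library, so their order is not resolved. The highest enzyme exceeded the lowest by 18.7-fold in control replicate 1 and 27.4-fold in control replicate 2. The sum over the 10 was 459 and 528 RPKM in control and 521 and 489 RPKM in cadmium, and the groups overlapped. ACADVL alone gave 221 and 292 RPKM of these sums in control and 285 and 267 RPKM in cadmium.

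**Figure D1:**
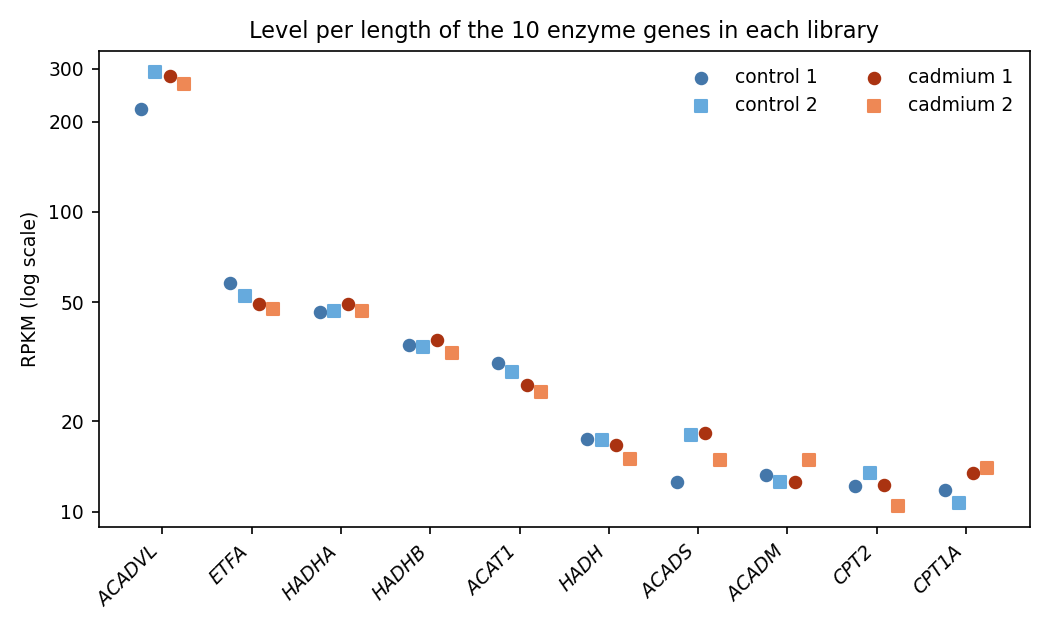
RPKM of each of the 10 genes on a log axis, with 1 point per library (2 control, 2 cadmium), genes sorted by their control mean. ACADVL lies at 221 to 292 RPKM, well apart from the others, and the 5 genes on the right share a band of 10.5 to 18.3 RPKM.

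Entry into the matrix begins with CPT1A (chr11:68522351-68609399 in the deposited hg19 coordinates, minus strand), the CPT1 form of liver and most other tissues and the step that malonyl-CoA inhibits. Its reads numbered 1823 and 540 for control replicates 1 and 2 and 2370 and 1288 for cadmium replicates 1 and 2. In CPM, counts divided by library size with TMM factors, these are 70.0 and 64.1 in control and 77.4 and 81.5 in cadmium. Both cadmium libraries lay above both controls. The log2 fold change was 0.24 (SE 0.10, 95% interval 0.02 to 0.46), a level 1.18-fold that of control, and it did not pass (edgeR, Benjamini-Hochberg adjusted p = 0.120).

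CPT2 (chr1:53662101-53679869, plus strand) turns the acyl-carnitine back into acyl-CoA on the matrix side. Its levels were 43.1 and 47.9 CPM in control and 42.3 and 36.6 CPM in cadmium. Both cadmium values lay below both controls, but control replicate 1 and cadmium replicate 1 were almost level. The log2 fold change was -0.20 (SE 0.12, 95% interval -0.47 to 0.08; edgeR adjusted p = 0.284). CPT2 overlaps C1orf123 on the opposite strand, which had about as many reads (361 to 1114) and a log2 fold change of -0.38 (edgeR adjusted p = 0.0413). Whether counting used strand is not given in the sources used here, so reads in the shared stretch could have been split between them.

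Around CPT1A and CPT2, 2 other genes placed on the list of carnitine shuttle and uptake genes passed the test. CPT1B, the muscle form of CPT1, had 3.81 and 4.71 RPKM in control and 7.16 and 9.18 RPKM in cadmium. Both cadmium libraries lay clear of the controls, and CPT1B rose by 0.94 on the log2 scale (SE 0.18, edgeR adjusted p = 0.0130). CPT1C, the form known from neurons, had 7.86 and 10.1 RPKM in control and 13.9 and 11.7 RPKM in cadmium and rose by 0.52 (SE 0.15, edgeR adjusted p = 0.0477). The carrier SLC25A20, which exchanges acyl-carnitine for carnitine across the inner membrane, had 11.6 and 10.6 RPKM in control and 8.54 and 8.64 RPKM in cadmium. Its log2 fold change of -0.40 (SE 0.13) did not pass (edgeR adjusted p = 0.0615). SLC25A20 passed with limma-voom (adjusted p = 0.0460) but not in DESeq2 (adjusted p = 0.157). With 1 library left out it lay between -0.47 (without control replicate 2) and -0.33 (without control replicate 1). Of the 6 other shuttle and carnitine uptake genes tested, 2 were higher and 0 lower.

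Of the summed RPKM of the 3 CPT1 genes, CPT1A held 50.3% and 41.8% in control and 39% and 40% in cadmium. The CPT1B share was 16.2% and 18.5% in control and 20.7% and 26.4% in cadmium, with no overlap between groups. The CPT1C share was 33.4% and 39.7% in control and 40.3% and 33.6% in cadmium, and overlapped. The sum itself was 23.5 and 25.5 RPKM in control and 34.5 and 34.8 RPKM in cadmium. It adds RNA levels of 3 genes named alike, and no enzyme activity was measured. CPT1B shares its locus with the read-through model CHKB-CPT1B, which held 147 to 577 reads per library with a log2 fold change of 0.27 (edgeR adjusted p = 0.712), and its neighbour CHKB rose by 0.61 (edgeR adjusted p = 0.0284), so the value of CPT1B is uncertain. Its call did not hold without cadmium replicate 2 (log2 fold change 0.73, edgeR adjusted p = 0.0694). The CPT1C call did not hold without control replicate 1 (0.33, edgeR adjusted p = 0.154), cadmium replicate 1 (0.39, edgeR adjusted p = 0.290) or cadmium replicate 2 (0.62, edgeR adjusted p = 0.0518).

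**Figure D2:**
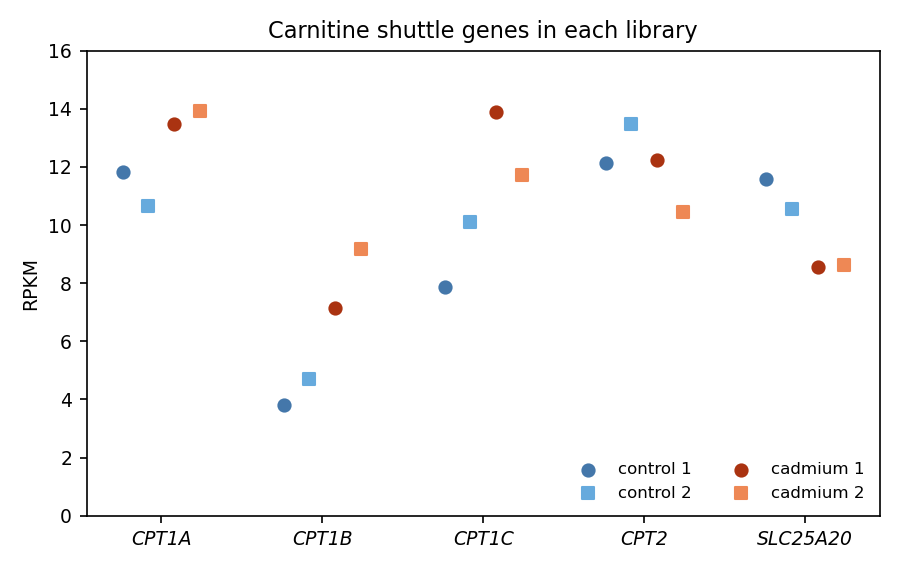
RPKM of CPT1A, CPT1B, CPT1C, CPT2 and SLC25A20, 1 point per library. Both cadmium libraries lie above both controls for CPT1A, CPT1B and CPT1C and below them for SLC25A20. CPT1B rises from 3.81 and 4.71 to 7.16 and 9.18 RPKM.

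The first dehydrogenation of each round is made by acyl-CoA dehydrogenases that differ in the chain length they accept. ACADVL (chr17:7123150-7128586, plus strand), for very long chains, had 579 and 764 CPM in control and 723 and 688 CPM in cadmium. Both cadmium values lay between the controls. Its log2 fold change was 0.07 (SE 0.13, edgeR adjusted p = 0.731), and without control replicate 2 it was 0.28 and passed (edgeR adjusted p = 0.0306). Without control replicate 1 it was -0.12 (edgeR adjusted p = 0.386). DLG4, a synaptic scaffold gene on the opposite strand that overlaps ACADVL, had 590 to 4036 reads per library against 6435 to 22144 for ACADVL, and rose by 0.81 (edgeR adjusted p = 0.00313). Reads in the shared stretch could have been split between them.

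ACADM (chr1:76190032-76229363, plus strand), the medium-chain enzyme whose deficiency is screened for in newborns, had 39.8 and 37.8 CPM in control and 36.9 and 44.0 CPM in cadmium. The groups overlapped, with cadmium replicate 1 the lowest and cadmium replicate 2 the highest of the 4, and the log2 fold change was 0.05 (SE 0.12, edgeR adjusted p = 0.801). Without cadmium replicate 2 it was -0.07. ACADS (chr12:121163571-121177811, plus strand), the short-chain enzyme, had 27.7 and 39.7 CPM in control and 39.1 and 32.3 CPM in cadmium. Its controls lay farther apart than any other pair among the 10 enzymes, at 0.52 on the log2 scale, with both cadmium values between them. The log2 fold change was 0.12 with an interval of -0.31 to 0.54, the widest of the 10 (edgeR adjusted p = 0.696), and it turned to -0.14 when control replicate 1 was left out and to -0.04 when cadmium replicate 1 was. ACADL, the long-chain dehydrogenase of rodent tissues, had 0 reads in every library.

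**Figure D3:**
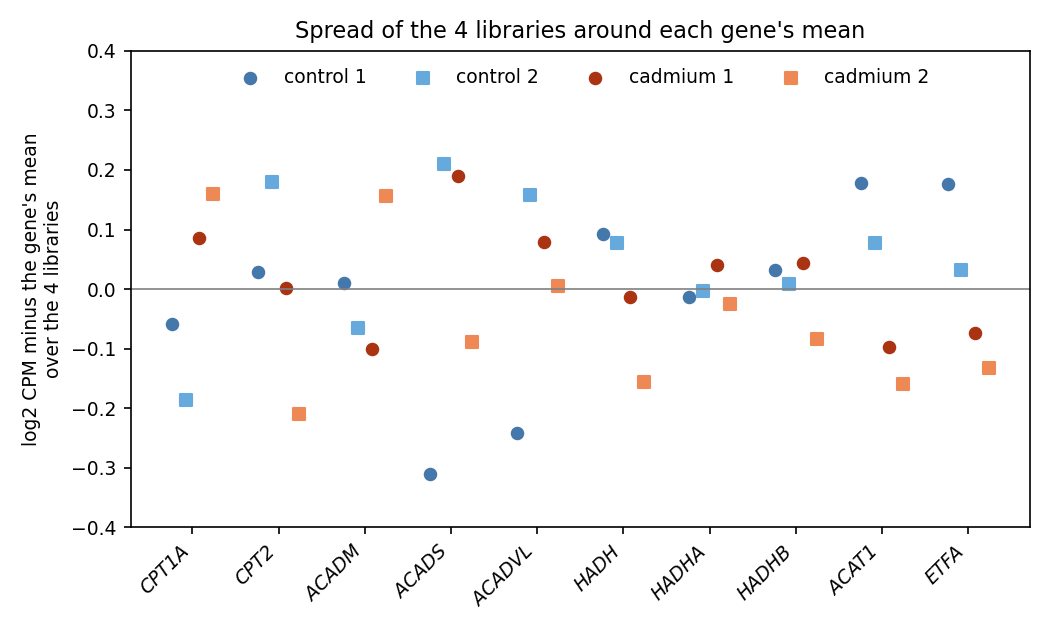
log2 CPM of each library minus the gene's mean over the 4 libraries, 1 point per library. ACADS and ACADVL show control replicate 1 far below control replicate 2, while ACAT1 and ETFA have both controls above both cadmium libraries and CPT1A has them below.

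Electrons from the dehydrogenases pass to the electron transfer flavoprotein, whose alpha subunit is ETFA (chr15:76508629-76603810, minus strand). ETFA had 89.0 and 80.5 CPM in control and 74.8 and 71.9 CPM in cadmium. Both cadmium libraries lay below both controls, and the log2 fold change was -0.21 (SE 0.10, unadjusted p = 0.0545 and adjusted p = 0.156 in edgeR). The beta subunit ETFB had 91.9 and 117 RPKM in control and 99.7 and 80.9 RPKM in cadmium, with overlap, and a log2 fold change of -0.23 (SE 0.14, edgeR adjusted p = 0.295). ETFDH, which hands the electrons to ubiquinone, had 5.90 and 6.22 RPKM in control and 5.36 and 5.41 RPKM in cadmium, at a log2 fold change of -0.21 (SE 0.14, edgeR adjusted p = 0.333). All 3 values were thus below 0 and none passed. The ratio of ETFA to ETFB in RPKM was 0.629 and 0.447 in control and 0.496 and 0.584 in cadmium, and that of ETFA to ETFDH was 9.79 and 8.41 in control and 9.23 and 8.74 in cadmium. Both ratios overlapped between groups.

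The trifunctional protein carries out the later reactions on long chains, with HADHA (chr2:26413504-26467594, minus strand) holding the hydratase and dehydrogenase activities and HADHB (chr2:26467616-26513333, plus strand) the thiolase. HADHA had 162 and 163 CPM in control and 168 and 160.4 CPM in cadmium. HADHB had 90.5 and 89.0 CPM in control and 91.2 and 83.5 CPM in cadmium. Their groups overlapped, and these were the enzymes nearest to 0. HADHA had a log2 fold change of 0.02 (SE 0.08, 95% interval -0.17 to 0.20, edgeR adjusted p = 0.905), -0.01 without cadmium replicate 1. HADHB had one of -0.04 (SE 0.09, edgeR adjusted p = 0.807), which was 0.02 without cadmium replicate 2 and 0.02 with scaling by library size alone. HADHA exceeded HADHB in RPKM by 1.29 and 1.32 in control and by 1.32 and 1.38 in cadmium, a ratio that varied less from library to library than those of ETFA to ETFB, of CPT1A to CPT2 or of ACADVL to ACADS. In the deposited hg19 models the starts of these head-to-head genes differ by 22 bases. The stretch printed above lies between their RefSeq starts, so part of it may fall within the deposited models.

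HADH (chr4:108910870-108956331, plus strand) dehydrogenates medium- and short-chain hydroxyacyl-CoA. It had 39.8 and 39.4 CPM in control and 37.0 and 33.5 CPM in cadmium. Both cadmium values lay below both controls, and the log2 fold change was -0.17 (SE 0.11, edgeR adjusted p = 0.323).

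ACAT1 (chr11:107992258-108018891, plus strand) is a thiolase that joins or splits acetoacetyl-CoA in ketone body and isoleucine metabolism. It had 1992 and 601 reads in control and 1936 and 957 in cadmium, or 76.5 and 71.4 CPM in control and 63.2 and 60.6 CPM in cadmium. Both cadmium libraries lay below both controls, by more than the spread within either group. The log2 fold change of -0.26 (SE 0.09, 95% interval -0.47 to -0.04) was the lowest of the 10, a level 0.836-fold that of control. Its unadjusted p was 0.0241 and its adjusted p 0.0937 in edgeR. With 1 library left out the log2 fold change lay between -0.31 (without control replicate 2) and -0.21 (without control replicate 1). With all libraries ACAT1 did not pass in DESeq2 (adjusted p = 0.190) or limma-voom (adjusted p = 0.0786).

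**Figure D4:**
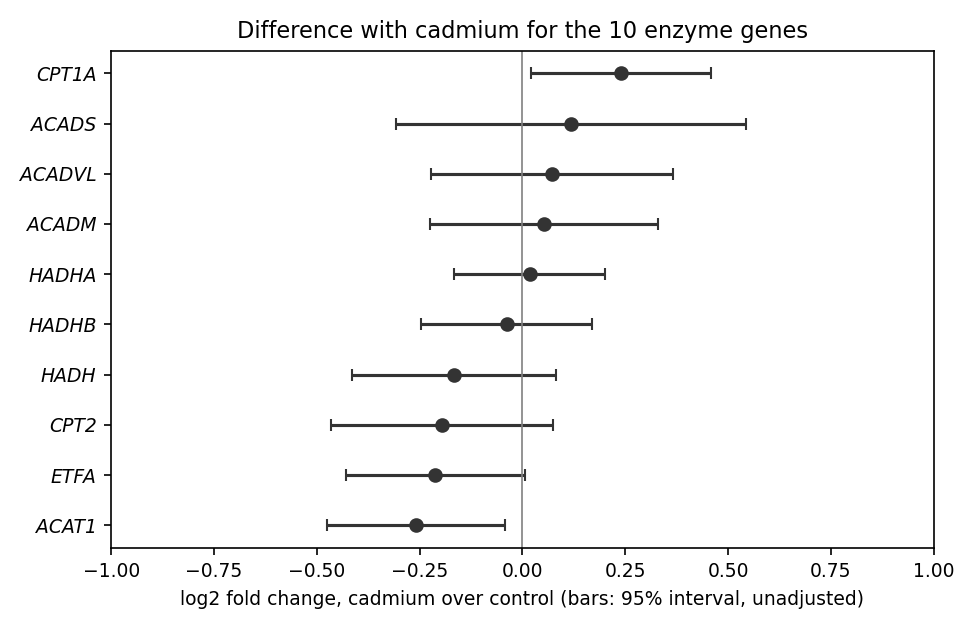
log2 fold change of each of the 10 genes, cadmium over control, with bars for the unadjusted 95% interval from edgeR. The intervals of CPT1A (0.02 to 0.46) and ACAT1 (-0.47 to -0.04) leave out 0, and 9 of the 10 intervals stay within 0.5 of it.

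For 9 of the 10 enzymes, 90% of them, the 95% interval lay within 0.5 of 0 on the log2 scale. ACADS was the exception. The same held for 41.3% of all genes tested, which were not matched to the enzymes for level. The lowest enzyme by mean RPKM, CPT2, stood at percentile 59.1 of those genes. The share was 87.5% for the peroxisomal genes, 75% for the acyl-CoA synthetases and 66.7% for general mitochondrial genes. It was 54.5% for the other matrix enzymes and 16.7% for the other shuttle and uptake genes. The median SE was 0.10 for the enzymes and 0.13 over all genes, and the median distance between libraries of a group was 0.11 for the controls and 0.10 for the cadmium libraries, next to a median log2 fold change of 0.14 in size. The CPM of the groups did not overlap for 5 of the 10, with CPT1A above and CPT2, HADH, ACAT1 and ETFA below, against 62.1% of all genes tested.

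Beyond the shuttle, the pathway's other enzymes gave few calls. Of 11 other matrix beta-oxidation enzymes tested, 0 were higher, 2 lower and 9 did not pass, with a median log2 fold change of -0.20. HSD17B10, which dehydrogenates short branched hydroxyacyl-CoA and is a subunit of mitochondrial RNase P, had 142 and 160.1 RPKM in control and 116 and 118 RPKM in cadmium and fell by 0.40 on the log2 scale (SE 0.09, edgeR adjusted p = 0.0229). ECHS1, the short-chain hydratase, had 87.7 and 88.9 RPKM in control and 74.9 and 73.1 RPKM in cadmium and fell by 0.29 (SE 0.08, edgeR adjusted p = 0.0468). Both genes had groups well apart, yet their calls rested on few libraries. The adjusted p of HSD17B10 was 0.143 without cadmium replicate 1 and 0.0804 without cadmium replicate 2 (edgeR). That of ECHS1 was 0.0654 with control replicate 1 left out, and 0.264 or 0.272 with cadmium replicate 1 or 2 left out (edgeR), and with all libraries it was 0.0689 with the stricter filter, 0.0702 in DESeq2 and 0.0911 when scaled by library size alone.

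Of 11 ketone body and branched-chain acyl-CoA enzymes tested, besides ACAT1, 0 passed. GCDH, which breaks down glutaryl-CoA, came nearest with a log2 fold change of -0.37 (edgeR adjusted p = 0.0519), followed by the leucine pathway enzyme IVD at -0.31 (edgeR adjusted p = 0.0621). Both passed with no filter on low counts (edgeR adjusted p = 0.0246 and 0.0414), and GCDH passed with limma-voom (adjusted p = 0.0417). Neither passed in DESeq2 (adjusted p = 0.0844 and 0.107) or with the stricter filter (edgeR adjusted p = 0.0688 and 0.0853). With 1 library left out GCDH lay between -0.46 and -0.27 and IVD between -0.37 and -0.24. Of the 4 long-chain acyl-CoA synthetases tested, which activate fatty acids before entry, 0 passed and all 4 log2 fold changes were above 0, with ACSL3 at 0.23 and ACSL4 at 0.23 (edgeR adjusted p = 0.166 and 0.208). With 1 library left out ACSL4 lay between 0.075 (without control replicate 2) and 0.40 (without control replicate 1).

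Malonyl-CoA, the inhibitor of CPT1, is made by the carboxylases ACACA and ACACB and removed by MLYCD, and 0 of these 3 passed. ACACA had a log2 fold change of 0.33 (edgeR adjusted p = 0.0868) and ACACB one of 0.33 (edgeR adjusted p = 0.115), against -0.08 for MLYCD (edgeR adjusted p = 0.793). ACACA passed with no filter (edgeR adjusted p = 0.0221) but not in DESeq2 (adjusted p = 0.0787) or limma-voom (adjusted p = 0.108). With 1 library left out ACACA lay between 0.15 and 0.50 and ACACB between 0.24 and 0.39. Among 8 peroxisomal beta-oxidation genes 1 rose: EHHADH, the bifunctional peroxisomal enzyme and a known PPAR target, with 4.34 and 4.30 RPKM in control and 6.21 and 6.22 RPKM in cadmium. Its libraries agreed closely within each group, and it rose by 0.50 on the log2 scale (SE 0.12, edgeR adjusted p = 0.0267). The call did not hold without cadmium replicate 1 (edgeR adjusted p = 0.166) or cadmium replicate 2 (edgeR adjusted p = 0.163), at log2 fold changes of 0.51 and 0.49, nor with all libraries in DESeq2 (adjusted p = 0.0543).

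Of 10 regulators tested 2 rose. PPARA, the nuclear receptor that induces fatty acid oxidation genes in liver during fasting, had 2.92 and 3.54 RPKM in control and 5.39 and 5.74 RPKM in cadmium. It rose by 0.77 on the log2 scale (SE 0.12, edgeR adjusted p = 0.00835), with the groups well apart, and passed with each library left out in turn. PRKAA2, a catalytic subunit of the kinase AMPK, had 1.37 and 1.45 RPKM in control and 1.91 and 2.25 RPKM in cadmium and rose by 0.53 (SE 0.15, edgeR adjusted p = 0.0425). That call did not hold without control replicate 1 (edgeR adjusted p = 0.0944), cadmium replicate 1 (edgeR adjusted p = 0.0911) or cadmium replicate 2 (edgeR adjusted p = 0.324), nor with all libraries in DESeq2 (adjusted p = 0.0731). The coactivator gene PPARGC1A had 0 to 3 reads per library and could not be tested. PPARG, named here after its values were seen, had 40 and 4 reads in control and 64 and 35 in cadmium and did not pass (log2 fold change 0.86, edgeR adjusted p = 0.198).

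Of 7 known PPAR targets outside the pathway, 1 rose: PLIN2, which coats lipid droplets, with 21.97 and 24.69 RPKM in control and 38.8 and 33.5 RPKM in cadmium, a rise of 0.61 on the log2 scale (SE 0.11, edgeR adjusted p = 0.0122). Without cadmium replicate 1 it was 0.51 and did not pass (edgeR adjusted p = 0.0708). CD36 and FABP4 had 0 reads, and PDK4 had 0 to 1 read per library. Of 9 genes of lipid droplet lipolysis and triglyceride synthesis, 3 rose and 6 did not pass. MGLL, which cleaves monoglycerides, had 0.865 and 1.07 RPKM in control and 2.83 and 2.89 RPKM in cadmium and rose by 1.59 (SE 0.19, edgeR adjusted p = 0.00349). DGAT2, which makes triglyceride, had 0.836 and 1.25 RPKM in control and 4.05 and 2.60 RPKM in cadmium and rose by 1.81 (SE 0.29, edgeR adjusted p = 0.00911). HILPDA, an inhibitor of triglyceride lipolysis, rose by 0.80 (SE 0.14, edgeR adjusted p = 0.0112), and by 0.71 without cadmium replicate 1, where it did not pass (edgeR adjusted p = 0.0751). PNPLA2, the triglyceride lipase itself, had a log2 fold change of -0.01 (edgeR adjusted p = 0.941).

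Together the 9 other lists of the pathway had 69 tested genes, of which 9 were higher, 2 lower and 58 did not pass, with a median of 0.02. The genes tested in all had 8.85% higher and 7.66% lower. Without control replicate 2 the count for the 69 genes was 14 higher and 8 lower, without cadmium replicate 1 it was 5 and 0, and without cadmium replicate 2 it was also 5 and 0.

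Mitochondrial genes of other functions are the nearest comparison for compartment. Of 12 such genes tested 3 fell, 9 did not pass and 11 had a log2 fold change below 0, with a median of -0.21. The enzymes had 5 of 10 below 0 and a median of -0.01. The 11 other matrix beta-oxidation enzymes tested lay nearer to the mitochondrial genes, with 8 below 0 and a median of -0.20. Of all 13663 genes tested 6801 were below 0, and 7.66% passed as lower. The import receptor genes TOMM20 and TOMM22 fell by 0.47 and 0.46 on the log2 scale (edgeR adjusted p = 0.0227 and 0.0137), and the phosphate carrier SLC25A3 fell by 0.30 (edgeR adjusted p = 0.0325). Without cadmium replicate 1 none of these 3 passed (edgeR adjusted p = 0.0591, 0.124 and 0.201), and without cadmium replicate 2 TOMM20 and SLC25A3 did not (0.0969 and 0.186). Scaling by library size alone also took SLC25A3 to -0.24 (edgeR adjusted p = 0.0625). The difference between the enzymes and these genes was not tested.

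**Figure D5:**
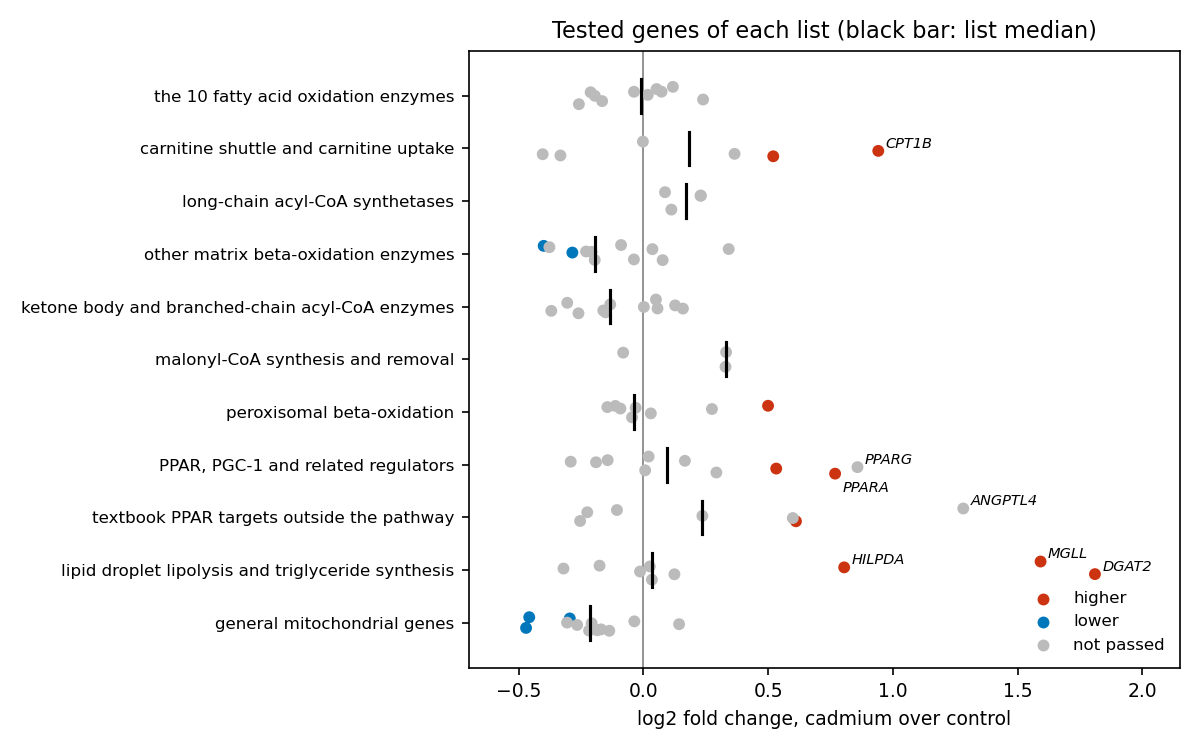
log2 fold change, cadmium over control, of every tested gene of the 10 enzymes, of the 9 other pathway lists and of general mitochondrial genes, with 1 point per gene, red for higher and blue for lower at an edgeR adjusted p under 0.05, grey for not passed, and a black bar at each list's median. The 10 enzymes hold no coloured point and lie within -0.26 to 0.24, while DGAT2 and MGLL lie at 1.81 and 1.59.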

How the data were processed

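RNA was measured in 4 libraries, 2 per group, prepared with a TruSeq RNA kit per the labels' protocols. Per library, the authors deposited read counts, which are whole numbers per RefSeq gene, and RPKM. Their deposited table of the comparison holds a log2 ratio with its p-value, unadjusted and adjusted. The number of genes adjusted for, 12807, was inferred from these p-values on the assumption of a Benjamini-Hochberg adjustment. STAR 2.4, DESeq, DESeq2 and the build hg19 are named in the submitters' processing notes. Which of DESeq and DESeq2 gave the deposited p-values was not determined. Which counter and annotation were used, and whether strand was, is not given in the sources used here.

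Counts were tested with edgeR 4.0.16 in R 4.3.3: filterByExpr, TMM scaling, group alone, robust glmQLFit and glmQLFTest, and Benjamini-Hochberg adjustment over 13663 genes with a threshold of 0.05. The procedure was tested on simulated data. Intervals are unadjusted, and an SE is the log2 fold change over the square root of F. RPKM, as deposited, describe levels and carry no test. Replicates differed by more than sampling noise (chi-square per gene 11.8 for the controls and 7.72 for the cadmium libraries).

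The members and lists were chosen with earlier results of these data known. Named genes were the 10 enzymes, their partner genes, and from each other list up to 4 passing genes with the largest change, or, if none passed, the 2 of smallest p. Alternatives were 2 replicate blocks, of which the crossed one was chosen after seeing the data, DESeq2 size factors, library size alone, a stricter filter (5 CPM in 2 libraries) or none, DESeq2 1.42.0, limma-voom (limma 3.58.1), each library left out, and RPKM with a pseudocount of 0.1.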

Additional observations from a re-analysis of the deposited data

How the results depend on the processing

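The enzymes' count of 0 higher and 0 lower held under every tested alternative except leaving out a library, where it ranged from 0 to 1 in each direction. RPKM gave no test. Their median log2 fold change was above 0 when scaled by library size alone (0.048), under the stricter filter (0.028) and from RPKM (0.020), and -0.13 to -0.024 with 1 library left out. HADHB reversed to 0.020 with library size alone and to 0.00032 under the stricter filter. With 1 library left out, log2 fold changes crossed 0 for ACADM (-0.074 to 0.19), ACADS (-0.14 to 0.37), ACADVL (-0.12 to 0.28), HADHA (-0.011 to 0.050) and HADHB (-0.099 to 0.024). The cause was not tested. Among the other pathway genes the count lower, 2, became 1 with library size alone, the stricter filter or DESeq2, 5 without a filter and 4 with limma-voom. With 1 library left out, 5 to 14 were higher and 0 to 8 lower, with a median of -0.074 to 0.074. Over all genes, library size alone gave 682 lower, and leaving out a library gave 369 to 1977 higher and 235 to 1791 lower. The lone library of a group is then assumed to vary like the other group.

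Library size alone moved the median of all genes by 0.058. Replicate numbers only name the libraries: deviations of same-numbered libraries correlated at -0.140 over genes. A fit with the replicate number as a block gave 1073 higher and 811 lower genes, 0 enzymes, and 1 lower among the other pathway genes. ECHS1, EHHADH, PRKAA2 and SLC25A3 did not pass with this block (edgeR adjusted p = 0.0937, 0.0512, 0.0598 and 0.0576). The crossed pairing, added after seeing the data, gave 1551 higher, 1471 lower, 0 enzymes and 7 lower among the other pathway genes. With 2 libraries a group, a difference of the size seen for CPT1A or ACAT1 was not resolved. The part of read depth in this was not tested.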

Other observations

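The spread between the 2 control libraries was not even over the enzymes. The log2 ratio of control replicate 2 to control replicate 1 was 0.52 for ACADS and 0.40 for ACADVL, and between -0.14 and 0.15 for the other 8. ACADS and ACADVL also had the highest GC content of the 10 in their longest coding transcript (GENCODE v29), 64.6% and 58.6%, against 41% to 52% for the others. Across the 10 genes GC content and this ratio had a Pearson correlation of 0.92 and a Spearman correlation of 0.75. These describe genes of the same 2 libraries. ACADS and ACADVL lie apart from the other 8 on both measures, and the correlation without them was not computed. Over the 11997 tested genes with a GC value the correlations were 0.20 and 0.29. The median ratio over these genes was -0.10 among the 3999 genes of lowest GC content, 0.02 among the 3999 in the middle and 0.08 among the 3999 of highest. Between the cadmium libraries the ratio of replicate 2 to replicate 1 was -0.28 for ACADS and -0.07 for ACADVL, with a Pearson correlation with GC content of -0.62 over the 10 enzymes and -0.25 over all genes. The part of GC content in these differences was not tested.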
